A study of Mus musculus with 2 samples.

Results

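Genes of the Wnt pathway were followed one by one in bulk RNA-seq of the spinal cord, taken from C57BL/6 mice on postnatal day 7. The wild-type group (WT) and the group with Olig1-Cre together with Secisbp2l floxed at its exon 3 (cKO) had 1 library each. Members were taken by gene symbol and comprise the Wnt ligands, Frizzled receptors, Lrp5, Lrp6, Ror1 and Ror2, the secreted inhibitors, the R-spondins with their Lgr receptors, the ubiquitin ligases Rnf43 and Znrf3, and Axin1, Axin2, Nkd1, Nkd2, Apc and Ctnnb1. The rule found 58 of the 51826 genes in the files, by symbol alone. Of the 58, 48 were measured, which means that their mean over both libraries was at least 1 count per 1000000 counts of the library (CPM). Of all genes, 15917 were measured. Olig1-Cre is named for a transcription factor of the oligodendrocyte lineage, so the allele is targeted in that lineage while the libraries hold RNA of every cell of the cord. The labels give neither the sex nor the number of animals behind a library, and state no deletion or agent carried by both groups. Having 1 library on each side, no difference has a replicate check, and no p-value is given.

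Wnt proteins are secreted lipid-modified ligands that bind Frizzled receptors together with the co-receptors Lrp5 or Lrp6. Binding halts the complex of Axin, Apc and kinases that otherwise marks beta-catenin for degradation, and beta-catenin then turns on target genes with TCF and LEF factors. R-spondins, bound by Lgr receptors, remove Rnf43 and Znrf3, ligases that clear Frizzled proteins from the membrane. Axin2, Nkd1, Znrf3, Rnf43 and Notum are themselves common target genes and feed back on the pathway. In the oligodendrocyte lineage, sustained beta-catenin signalling delays the differentiation of precursors, and precursors also secrete Wnt7a and Wnt7b, which act on blood vessels.

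Estimated counts summed to 42875143 in WT and 55179026 in cKO. Secisbp2l itself stood at 588 and 466 CPM in that order, in values that do not isolate the floxed exon. The libraries also differed in sex-linked RNA, with 35182 counts of Xist in WT and 13 in cKO, and 0 counts of 4 Y-linked genes in WT against 1081 to 4280 in cKO. Genotype and this difference cannot be told apart in any comparison here. All 12 genes taken to mark regions and neurons of the spinal cord were measured in both libraries, and their summed level was 671 TPM (transcripts per 1000000, a level scaled by length) in WT and 773 TPM in cKO. In whole tissue, fewer cells of a type and less RNA per cell cannot be told apart.

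Most members were close between the libraries. The 48 measured members had a median log2 ratio of cKO over WT of 0.06, against 0.01 for all measured genes, and 44 of them lay inside a rule of size that 5.88% of all measured genes passed in one direction or the other. That rule asked for at least 1.5-fold and a 95% exact interval of the ratio, which covers counting error only, that leaves out 1. It was met by 2 members higher in cKO, Znrf3 and Rspo1, or 4.17% of those measured, where 2.46% of all measured genes met it. It was met by 2 members lower in cKO, Wnt3 and Sfrp5, again 4.17%, where 3.42% of all measured genes met it. With 4 genes in all, these shares are near the background. For each of the 4, the interval also includes the 1.5-fold limit itself. An interval wholly above 1, at any fold, was found for 11 members (22.9%, against 21.9% of all measured genes), and one wholly below 1 for 5 members (10.4%, against 18.4%).

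**Figure D1:**
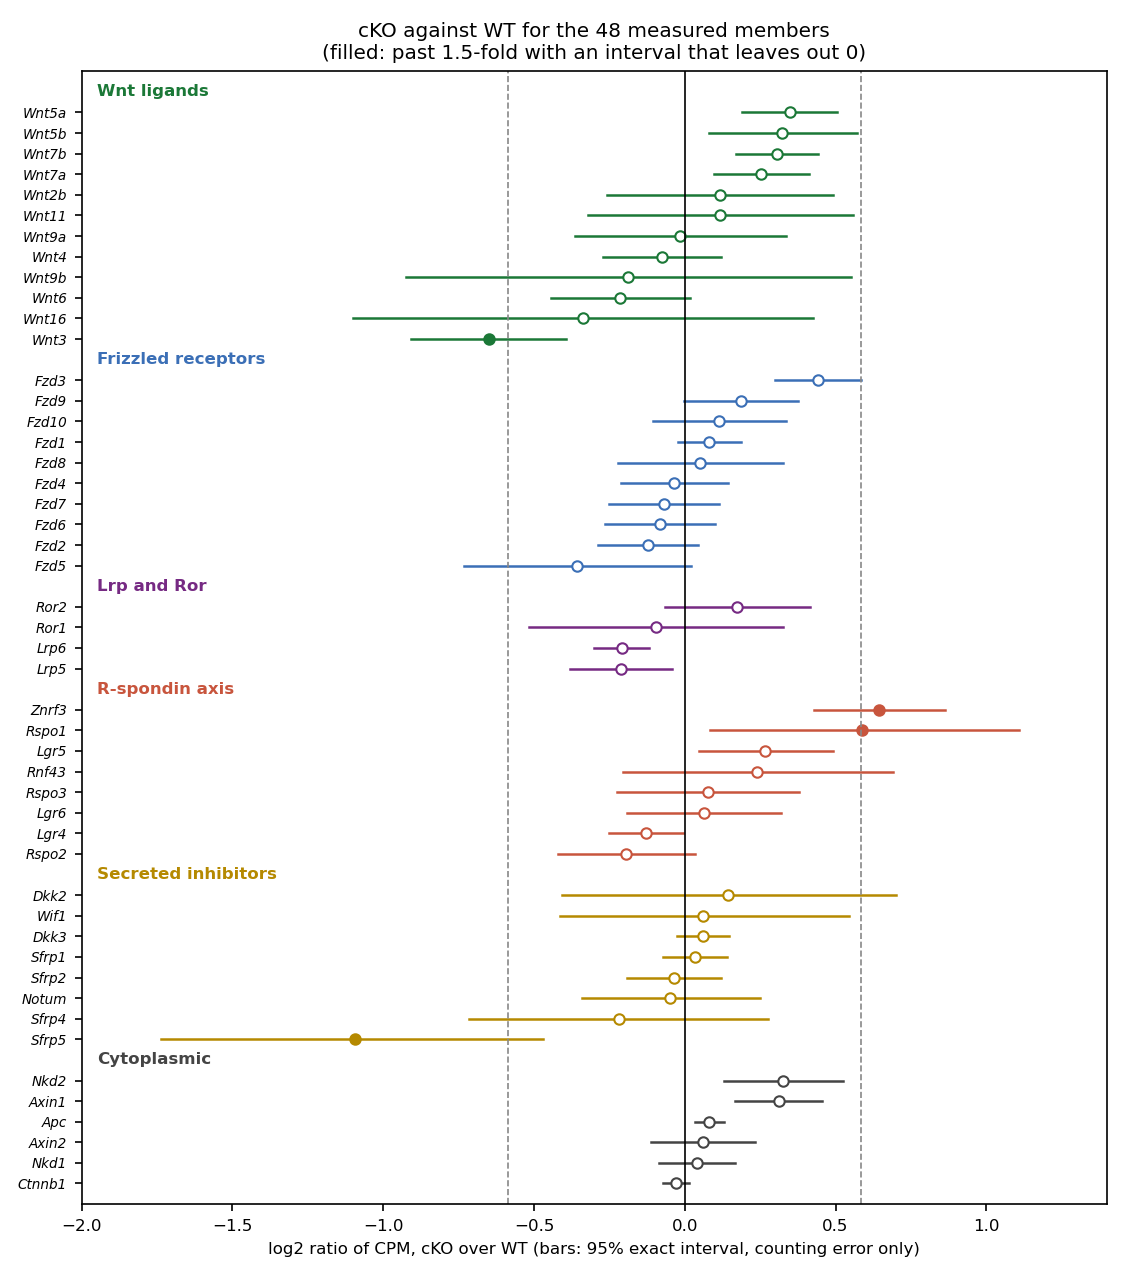
log2 ratio of CPM (cKO over WT, horizontal axis) for the 48 measured members, grouped by role. Points are ratios, bars are 95% exact intervals that cover counting error only, dashed lines mark 1.5-fold, and the 4 filled points (Wnt3, Sfrp5, Znrf3, Rspo1) are past the size rule.

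Sequences are shown first where the deposited transcript values separated forms of a gene that differ in coding sequence. In Axin1, an exon of 108 bases (chr17:26192516-26192623, plus strand, GRCm38) is coding in Axin1-201 and skipped in Axin1-202 and Axin1-203, a difference of 36 codons. In Nkd2, an exon of 36 bases (chr13:73847270-73847305, minus strand), or 12 codons, is present in Nkd2-201 and skipped in Nkd2-202. GENCODE M21 transcripts gave these sequences. Capitals in both lines below mark the exon, with 15 bases of the spliced neighbours in lower case.
Axin1-201 exon: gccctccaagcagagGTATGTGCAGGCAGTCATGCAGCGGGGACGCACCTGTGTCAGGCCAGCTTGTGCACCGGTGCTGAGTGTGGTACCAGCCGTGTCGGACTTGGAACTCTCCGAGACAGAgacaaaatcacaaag
Nkd2-201 exon: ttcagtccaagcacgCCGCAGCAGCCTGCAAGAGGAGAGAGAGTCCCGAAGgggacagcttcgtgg
Wnt5a-201 and Wnt5a-202 (plus strand of chromosome 14) start 6655 bases apart and use different start codons, which are in capitals in the coding line of Wnt5a-201 below. The first opens Wnt5a-201 and the second, 60 bases or 20 codons further on, opens Wnt5a-202 in the same frame.
Wnt5a-201 coding start: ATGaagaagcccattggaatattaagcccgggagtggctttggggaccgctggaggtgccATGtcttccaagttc
Znrf3-201 starts 63107 bases upstream of Znrf3-203, and its first coding exon of 291 bases (chr11:5444388-5444678, minus strand) is not part of Znrf3-203. The start codon is in capitals.
Znrf3-201 first coding exon: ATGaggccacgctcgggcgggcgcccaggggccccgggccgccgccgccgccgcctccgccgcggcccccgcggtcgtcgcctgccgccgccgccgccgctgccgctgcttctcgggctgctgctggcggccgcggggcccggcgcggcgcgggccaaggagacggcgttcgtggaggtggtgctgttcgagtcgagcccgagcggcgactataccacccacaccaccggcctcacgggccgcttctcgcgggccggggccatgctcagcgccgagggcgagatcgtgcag

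Among the 19 ligand genes, Wnt7b was the most abundant per length, at 21.8 TPM in WT and 27.7 TPM in cKO. Wnt7a followed at 17.9 and 21.7 TPM, and Wnt6 at 15.4 and 13.7 TPM. These 3 genes headed the order in WT, while in cKO Wnt5a, at 14.9 TPM, stood ahead of Wnt6. Summed over all ligand genes the level was 112 TPM in WT and 126 TPM in cKO. The Wnt7b and Wnt7a intervals lay above 1 at less than 1.5-fold. Wnt7b had 1451 and 2303 counts, a log2 ratio of 0.30 (interval 0.17 to 0.44), and Wnt7a had 1081 and 1657 counts, a log2 ratio of 0.25 (0.10 to 0.41).

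Wnt3 was the 1 ligand gene past the size rule. It lies on the plus strand of chromosome 11, at 103774150 to 103817957 in GRCm38, and encodes a ligand of the beta-catenin branch. It had 559 counts (13.0 CPM) in WT and 458 counts (8.31 CPM) in cKO, a log2 ratio of -0.65 (interval -0.91 to -0.39), or 1.57-fold lower in cKO. All of its counts belong to 1 annotated transcript, and no other gene shares its exons, so its value does not rest on a division of reads between forms. With a pseudocount of 1 added to the deposited TPM, the log2 ratio was -0.54 and missed the limit. Wnt9b, its neighbour 24328 bases away on the opposite strand, had 63 counts in WT and 71 in cKO, a log2 ratio of -0.19 (-0.92 to 0.55).

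Wnt5a and Wnt5b, ligands best known for signalling without beta-catenin, had similar ratios on counts. Wnt5a had 24.6 CPM (1055 counts) in WT against 31.3 CPM (1725 counts) in cKO, for a log2 ratio of 0.35 (0.19 to 0.51), and Wnt5b had 10.5 and 13.1 CPM, a log2 ratio of 0.32 (0.08 to 0.57). For Wnt5a the unit mattered. On the deposited TPM it stood at 8.95 in WT and 14.9 in cKO, a log2 ratio of 0.74, which is past 1.5-fold. The gap follows the division between 2 transcripts of different length, which is described with the other transcripts below.

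The remaining measured ligand genes lay within 1.5-fold, with intervals that included 1. Wnt4, a ligand known from kidney and gonad development, had 787 and 959 counts and a log2 ratio of -0.08 (-0.27 to 0.12). Wnt6 was at -0.21 (-0.44 to 0.02), Wnt9a at -0.02, Wnt2b and Wnt11 both at 0.12 (Wnt11 at 0.61 over its protein-coding transcripts only, on fewer counts), and Wnt16 at -0.34 on 62 and 63 counts. For Wnt16 the interval ran from -1.102 to 0.424, so a 1.5-fold difference in the lower direction was not detectable at this depth.

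The other 7 ligand genes were under 1 CPM. Wnt10b, Wnt10a, Wnt2, Wnt1, Wnt3a and Wnt8b had 8 to 31 counts in WT and 8 to 49 in cKO, and Wnt8a had 0 in both libraries. A count of 0 allows up to 3 fragments, or 6 counts. Wnt1, the ligand of the dorsal midline of the embryonic neural tube, had 21 counts in WT and 8 in cKO, a log2 ratio of -1.75 with an interval from -3.87 to 0.02. Its neighbour Wnt10b, 11706 bases away in the opposite orientation, had 31 and 49 counts. Wnt3a had 8 and 22 counts, a log2 ratio of 1.10 (-0.66 to 3.20), and its neighbour Wnt9a 247 and 314. The intervals of Wnt1 and Wnt3a span a wide range of ratios that includes 1, so no direction was read from them.

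**Figure D2:**
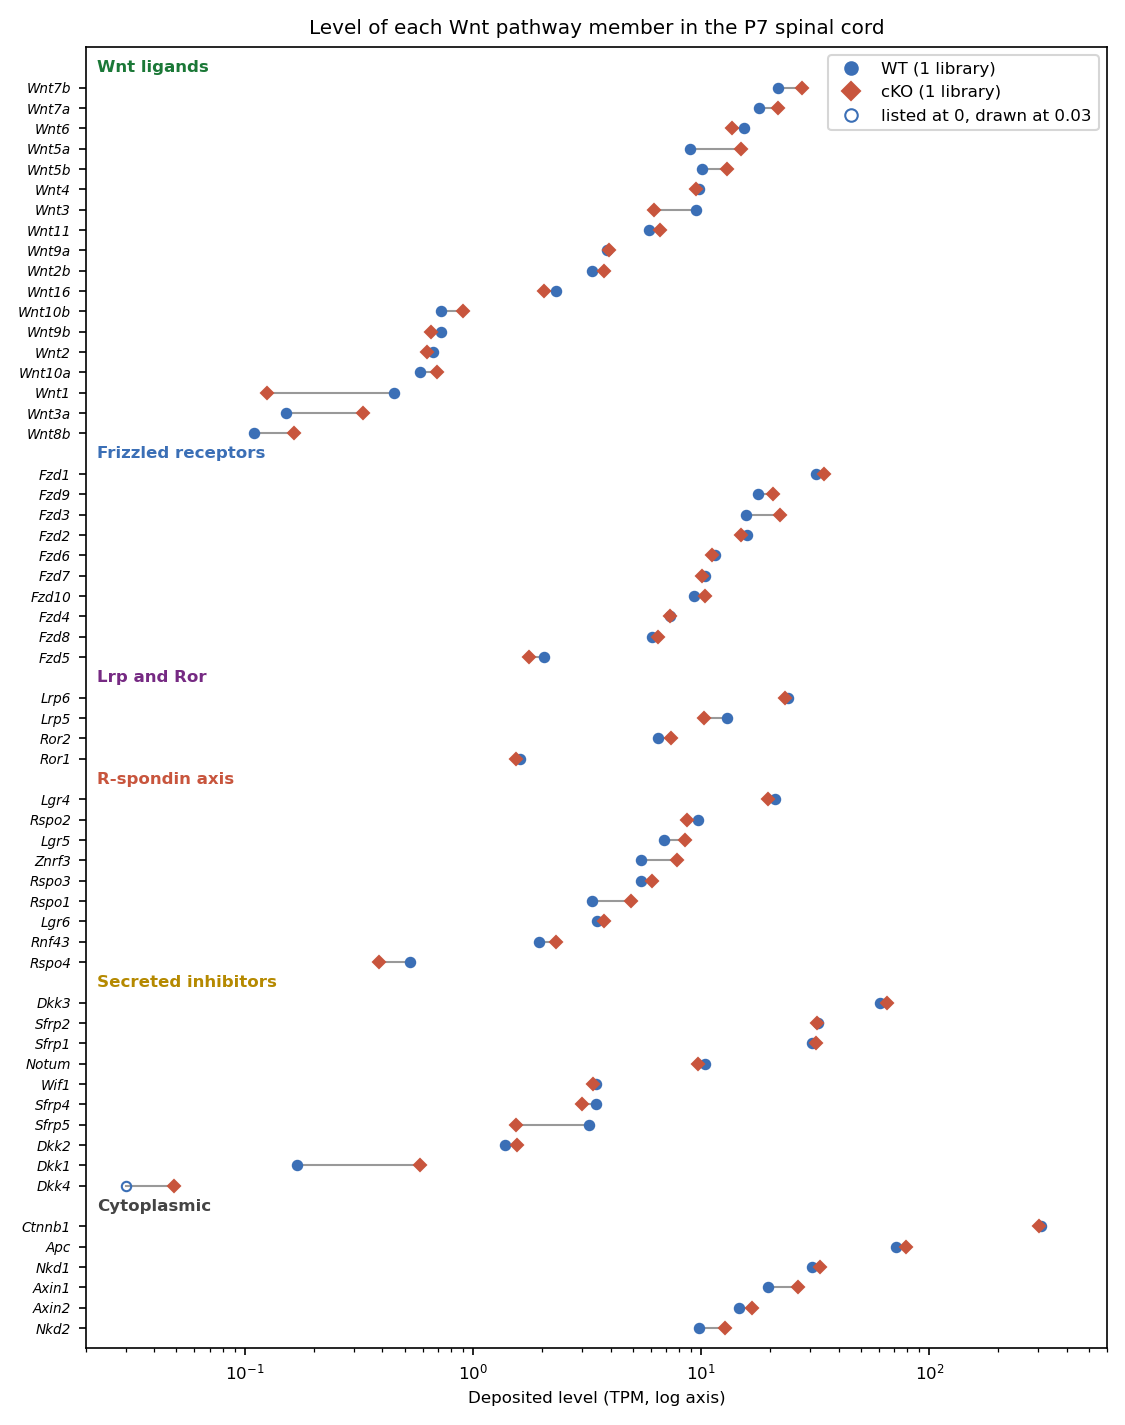
Deposited level (TPM, log axis) of each member in the WT library (circles) and the cKO library (diamonds), grouped by role and ordered by mean level; Wnt8a, listed at 0 in both, is left out and an open circle marks a value listed at 0. Most pairs lie close together. Those further apart include members of low level and Wnt3, Wnt5a, Sfrp5, Rspo1, Znrf3, Fzd3 and Axin1.

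All 10 Frizzled genes were measured and 0 were past the size rule. Fzd1 was the most abundant, at 31.8 TPM in WT and 34.5 TPM in cKO, a log2 ratio on counts of 0.08 (-0.02 to 0.19). Fzd9, Fzd2 and Fzd3 came next in WT, at 17.7, 15.9 and 15.7 TPM, and differed from one another by less than Fzd3 differed between libraries. Fzd3, a receptor of axon guidance and planar polarity, had 1252 counts (29.2 CPM) in WT and 2185 counts (39.6 CPM) in cKO. Its log2 ratio of 0.44 was the highest of the family, its interval (0.30 to 0.58) left out 1, and its fold of 1.36 missed the limit. Fzd3-202 held 100% of its counts in WT and 99.9% in cKO.

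Fzd5 had the lowest ratio of the receptors, -0.36 on 240 and 241 counts, with an interval from -0.73 to 0.02. Fzd4, the receptor of endothelial cells that forms the barrier of central nervous system vessels, was at -0.04 (-0.21 to 0.14) on 943 and 1183 counts. Fzd2, Fzd6, Fzd7, Fzd8, Fzd9 and Fzd10 had log2 ratios between -0.12 and 0.19.

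The co-receptors of the beta-catenin branch were both slightly below equality. Lrp6 had 3725 counts (86.8 CPM) in WT and 4143 counts (75.1 CPM) in cKO, a log2 ratio of -0.21 (-0.30 to -0.12). Lrp5 had 1107 and 1229 counts, also a log2 ratio of -0.21 (-0.38 to -0.04). On the deposited TPM with a pseudocount of 0.1, Lrp6 was at -0.05, outside its interval on counts. Its main transcript, Lrp6-201, was lower in cKO in both units, at -0.23 (-0.32 to -0.14) on counts and at 20.32 TPM in WT against 17.75 TPM in cKO. When only protein-coding transcripts were counted, Lrp5 was at 0.01. Ror2 and Ror1, receptor kinases bound by Wnt5a, had log2 ratios of 0.17 (-0.07 to 0.42) and -0.10 (-0.52 to 0.33), on 484 and 702 counts for Ror2 and 178 and 214 for Ror1.

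Of 8 measured genes of the R-spondin axis, 2 were higher by the size rule, which 2.46% of all measured genes passed in that direction. For both, Znrf3 and Rspo1, the interval of the ratio includes the 1.5-fold limit itself, as it does for Wnt3 and Sfrp5 in the lower direction. Znrf3, which encodes the ligase that removes Frizzled and Lrp6 from the membrane, spans 5276324 to 5444847 of chromosome 11 (minus strand). It had 531 counts (12.4 CPM) in WT and 1067 counts (19.3 CPM) in cKO, a log2 ratio of 0.64 (0.43 to 0.86), or 1.56-fold higher. Rnf43, which encodes the related ligase, had 143 and 217 counts, a log2 ratio of 0.24 (-0.20 to 0.69). The call of Znrf3 was lost on the deposited TPM, where the log2 ratio was 0.52 with a pseudocount of 0.1 and 0.46 with a pseudocount of 1.

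Rspo1, a secreted R-spondin, lies on the plus strand of chromosome 4 at 124986430 to 125009099. It had 101 counts (2.35 CPM) in WT and 195 counts (3.54 CPM) in cKO. Its log2 ratio of 0.587 (interval 0.08 to 1.11) stood just above the limit of 0.585, and on the deposited TPM it was 0.56 with a pseudocount of 0.1 and missed it. Rspo3 and Rspo2, which were more abundant, had log2 ratios of 0.08 (-0.22 to 0.38) and -0.19 (-0.42 to 0.03). Rspo4 had 25 and 23 counts and was not measured.

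Among the Lgr receptors, Lgr4 was the most abundant, with 2000 counts in WT and 2353 in cKO, a log2 ratio of -0.13 (-0.25 to -0.0046). Lgr5, known as a stem cell marker in the gut, had 556 and 860 counts, a log2 ratio of 0.27 (0.05 to 0.49). Counted over protein-coding transcripts only, Lgr5 was at 0.03, because a retained-intron transcript, Lgr5-202, went from 26 counts in WT to 162 in cKO. Lgr6 was at 0.06.

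Secreted inhibitors were led by Dkk3, with 3917 counts (60.8 TPM) in WT and 5250 in cKO, which is a divergent member of the Dickkopf family. Sfrp2 followed at 32.3 and 32.2 TPM and Sfrp1 at 30.4 and 31.9 TPM, both decoys that bind Wnt proteins. Their log2 ratios on counts were 0.06, -0.04 and 0.03, with intervals that included 1. Notum, an enzyme that strips the lipid from Wnt proteins, was at -0.05 (-0.34 to 0.25) on 349 and 434 counts, and at 0.25 over its protein-coding transcripts only. Notumos, an antisense gene that overlaps it, had 64 and 158, and reads of the 2 genes cannot be told apart where the strand setting is not given. Wif1, another binder of Wnt proteins, was at 0.06 on 132 and 177 counts. Over its protein-coding transcripts only, Wif1 was at 0.45 (-0.09 to 1.01), on 91 and 160 counts. Sfrp4 was at -0.22 and Dkk2 at 0.14.

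Sfrp5 was the 1 inhibitor past the size rule, and it had the lowest ratio of all measured members. It spans 42197971 to 42202252 of chromosome 19 (minus strand) and has 1 annotated transcript. It had 118 counts (2.75 CPM) in WT and 71 counts (1.29 CPM) in cKO, a log2 ratio of -1.095 (interval -1.74 to -0.47), or 2.14-fold lower. At a filter of 5 CPM neither Sfrp5 nor Rspo1 would be tested.

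Dkk1, an inhibitor that binds Lrp5 and Lrp6 and a known target gene of the pathway, was under 1 CPM, with 8 counts in WT and 34 in cKO. Its log2 ratio was 1.73 with an interval from 0.11 to 3.76, so the size of the ratio is poorly fixed. Dkk4 had 0 and 2 counts, which gives no ratio. Dkk1 was 1 of 3 members, with Wnt11 and Wnt5b, whose RefSeq promoter held a short TCF/LEF core. Only the Dkk1 upstream sequence is printed, and the motif alone does not set it apart from Wnt11 and Wnt5b. The search took CTTTGAT and CTTTGAA on both strands from 250 bases before to 50 after the start. Of 42 promoters listed for 37 members, 3 held a match (7.14%), against 8.65% of all 32851 promoters. The match in Dkk1 begins 117 bases before the start and is in capitals in the 250 bases upstream (chr19:30549497-30549746, minus strand, GRCm38.p6, RefSeq).
Dkk1 upstream: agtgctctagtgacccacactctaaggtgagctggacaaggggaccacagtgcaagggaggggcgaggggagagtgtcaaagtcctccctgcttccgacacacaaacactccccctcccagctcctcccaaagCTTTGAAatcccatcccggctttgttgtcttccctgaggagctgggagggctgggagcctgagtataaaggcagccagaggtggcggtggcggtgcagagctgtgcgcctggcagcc

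Genes of the cytoplasm held the most abundant members, and 0 of 6 were past the size rule. Ctnnb1, which encodes beta-catenin, stood at 308 TPM in WT and 302 TPM in cKO, with a log2 ratio on counts of -0.03 (-0.07 to 0.01), or 0.14 over its protein-coding transcripts only. Apc, the scaffold of the degradation complex, stood at 71.1 and 79.2 TPM, with a log2 ratio on counts of 0.08 (0.03 to 0.13). On the deposited TPM with a pseudocount of 0.1, Apc was at 0.16, outside that interval. Axin2, the most used readout of beta-catenin signalling, had 961 counts (22.4 CPM) in WT and 1288 counts (23.4 CPM) in cKO, a log2 ratio of 0.06 (-0.11 to 0.23). Nkd1, a Dishevelled-binding feedback inhibitor, was at 0.04 (-0.09 to 0.17) on 1823 and 2408 counts. Its relative Nkd2 had 686 and 1105 counts and a log2 ratio of 0.33 (0.13 to 0.52). Axin1, the constitutive scaffold, had 1277 and 2037 counts and a log2 ratio of 0.31 (0.17 to 0.46).

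Of the 5 feedback targets Axin2, Nkd1, Notum, Rnf43 and Znrf3, the interval of Znrf3 left out 1 and the others included it. Differences between these genes were not tested, and the interval of Rnf43 (-0.20 to 0.69) contains the ratio of Znrf3.

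Transcript values were compared for the 31 members with more than 1 annotated transcript and at least 100 counts in each library. In 4 of them (12.9%), Axin1, Wnt5a, Znrf3 and Wif1, the share of a transcript moved by at least 20 percentage points, a limit chosen after the values were seen. The same was true of 14.5% of 11468 genes across the whole table, so moves of this size are not particular to Wnt genes. Shares below are of the gene's estimated counts, with 95% Wilson intervals that cover counting error only. Transcripts of a gene share most of their exons, and the division between them is the authors' estimate.

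For Axin1, Axin1-203 went from 109 counts in WT to 1107 in cKO while Axin1-202 went from 339 to 0, the widest move of a share among these members (45.8 points). Both have the same coding sequence and differ outside it, and neither holds bases that are absent from the other transcripts of the gene. Counted as 1 form that skips the 108-base exon shown above, they made up 35.1% of coding counts in WT (interval 31.5% to 38.9%) and 54.4% in cKO (51.4% to 57.5%). The form with the exon, Axin1-201, had 828 and 927 counts, a log2 ratio of -0.20, and the form without it had 448 and 1107, a log2 ratio of 0.94. The skipped exon lies near the 3′ end of the gene, as the exon map shows.

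For Wnt5a, Wnt5a-202 had 67 counts in WT and 691 in cKO, while Wnt5a-201 had 963 and 997. The share of Wnt5a-202 was 6.35% in WT (4.57% to 8.76%) and 40.1% in cKO (36.8% to 43.4%). Wnt5a-202 is 3650 bases long against 7010 for Wnt5a-201, which is why a length-scaled level such as TPM differs from the count ratio for this gene. Wnt5a-201 has 3164 bases of its own, while Wnt5a-202 has 0 that no other annotated transcript of the gene holds.

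For Znrf3, the excess in cKO lay in the transcript with the upstream start. Znrf3-201 had 212 counts in WT and 657 in cKO, a log2 ratio of 1.27 (0.95 to 1.599), and Znrf3-203 had 311 and 408, a log2 ratio of 0.03 (-0.28 to 0.34). The share of Znrf3-201 was 39.9% in WT (34.2% to 45.9%) and 61.6% in cKO (57.4% to 65.6%). Unlike the Axin1 and Wnt5a forms that gained counts, Znrf3-201 has 2278 bases of its own and Znrf3-203 has 1353.

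**Figure D3:**
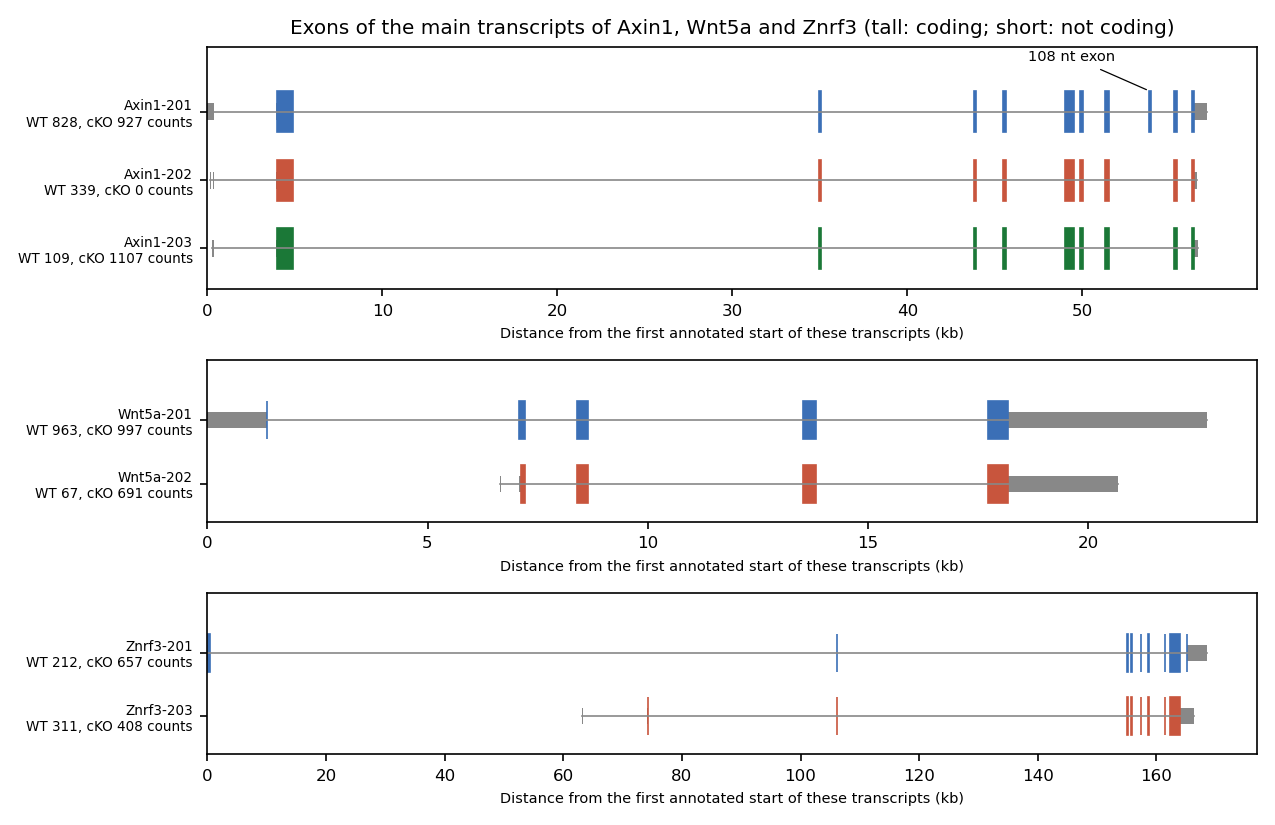
Exons of the main transcripts of Axin1, Wnt5a and Znrf3 by distance from the first annotated start (kb); tall boxes are coding, short boxes are not, and the estimated counts of each library stand beside each transcript. The 108-base exon is present in Axin1-201 only, and Wnt5a-202 and Znrf3-203 begin at downstream starts.

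Smaller moves were found in other members, which are given here together with Wif1. Fzd6-202, which differs from Fzd6-201 outside the coding sequence, held 27.3% of counts in WT and 7.99% in cKO, on 245 and 87 counts. Lrp5-203, a transcript annotated as subject to nonsense-mediated decay, had 216 counts in WT and 59 in cKO, while the full-length Lrp5-201 had 869 and 1117, a log2 ratio of 0.00 (-0.18 to 0.18). Nkd2-202, the form without the 36-base exon shown above, was listed at 0 counts in WT and 160 in cKO, and Nkd2-201 had 669 and 934, a log2 ratio of 0.12. Wnt7b-201 and Wnt7b-202, whose starts lie 3751 bases apart, had log2 ratios of 0.91 (0.61 to 1.22) and 0.13 (-0.03 to 0.28), on 263 and 636 counts and on 1186 and 1665. Wif1-202, a retained-intron transcript, had 41 and 17 counts. Retained-intron transcripts also held much of Ctnnb1, where Ctnnb1-209 had 6806 counts in WT and 7661 in cKO beside 6910 and 10088 for Ctnnb1-201, and of Notum, where Notum-201 had 119 and 82 beside 217 and 329 for Notum-202. For Rnf43, Rnf43-202 had 106 and 153 counts and the retained-intron Rnf43-206 35 and 37. Wnt11-204, annotated as subject to nonsense-mediated decay, had 77 and 90 of the Wnt11 counts. By contrast, the single main transcripts of Wnt7a, Fzd3, Sfrp2, Ror2 and Wnt6 held over 98% of their gene's counts in both libraries.

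**Figure D4:**
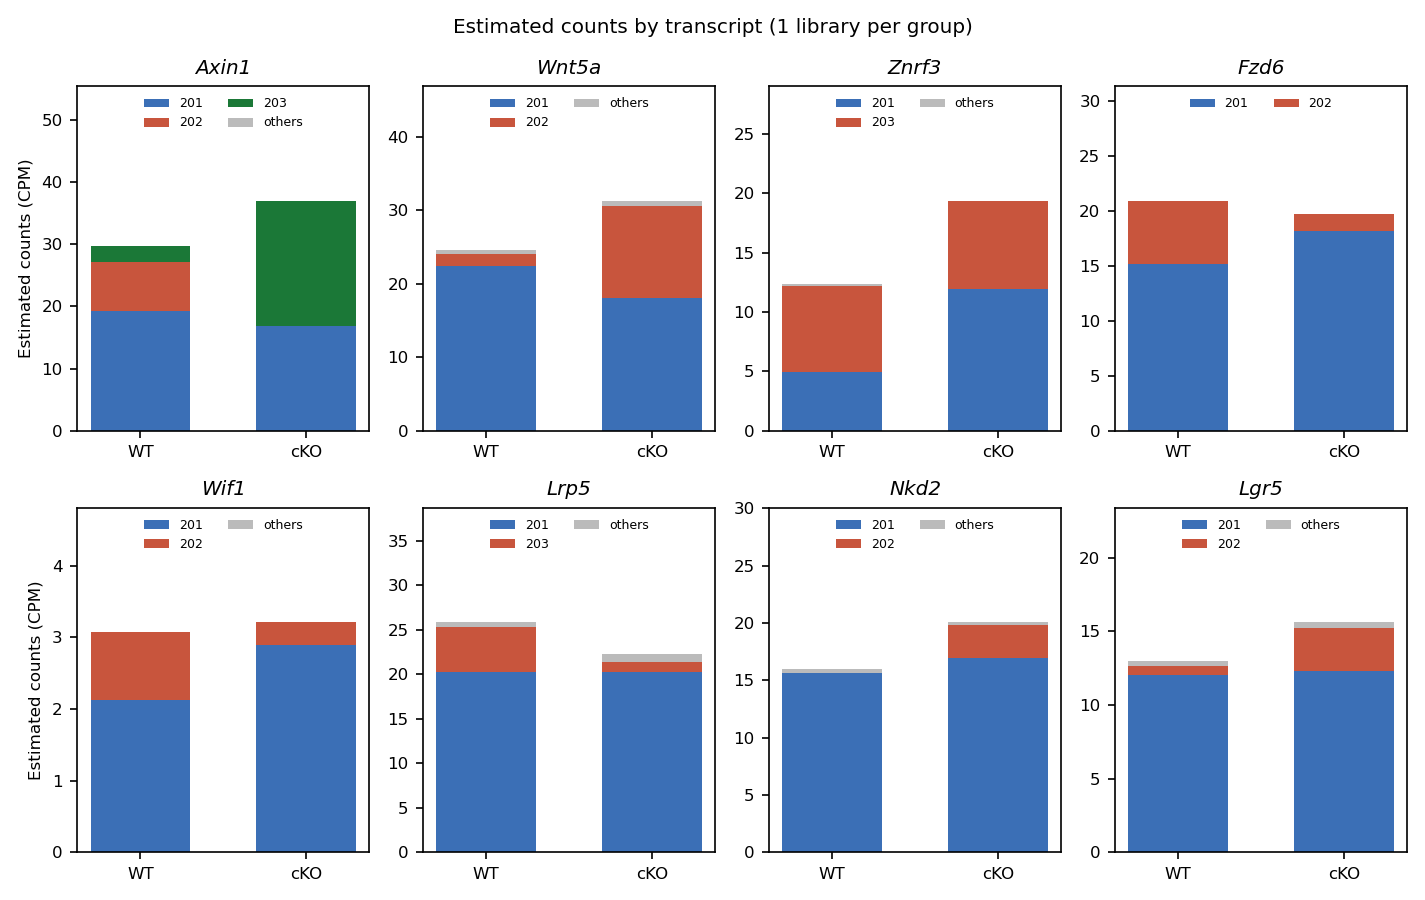
Estimated counts per 1000000 (CPM, vertical axis from 0) in the WT and cKO libraries for 8 members, stacked by transcript; transcripts under 10% of the gene in both libraries are pooled as others. Axin1-203, Wnt5a-202 and Znrf3-201 make up more of the cKO bars than of the WT bars.

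Other genes of the pathway were taken from 5 lists of 68 genes, of which 65 were measured. Their median log2 ratio was 0.06, 3 were higher by the size rule (4.62%, against 2.46% of all measured genes) and 0 were lower. Adgra2, the endothelial receptor that together with Reck makes vessels responsive to Wnt7a and Wnt7b, had 1134 counts in WT and 2614 in cKO, a log2 ratio of 0.84 (0.70 to 0.99). Reck was at -0.11 (-0.29 to 0.07). Adgra2 overlaps exons of Brf2 on the other strand, and the log2 ratio of both genes summed remained past the limit. All 10 endothelial and pericyte markers lay within 1.5-fold, with a median of 0.08.

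Tbx3, a transcription factor named as a target of the pathway, had 143 and 382 counts, a log2 ratio of 1.06 (0.66 to 1.47). Celsr3, an adhesion receptor of planar polarity that acts with Fzd3 in axon guidance, had 2831 and 5606 counts, a log2 ratio of 0.62 (0.53 to 0.72), or 0.43 on the deposited TPM. Celsr2, of the same family, was at 0.44 and Daam1, a formin of the polarity branch, at 0.06. The most abundant target genes, Id2 and Ccnd1, were at -0.33 and -0.25, inside the rule, and Apcdd1, a membrane inhibitor, was at 0.28. The DNA-binding partners Lef1, Tcf7, Tcf7l1 and Tcf7l2 were at 0.22, 0.12, -0.19 and -0.18, and with Reck were picked after the values were seen. Ctnnbip1, an inhibitor of beta-catenin, was at 0.05 and Pygo2, a coactivator, at 0.01. Csnk1a1 and Gsk3a, kinases of the degradation complex with the highest mean TPM in the list of cytoplasmic transducers, had log2 ratios on counts of -0.10 and 0.09, and Wls, the carrier that releases Wnt proteins, was at -0.27.

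**Figure D5:**
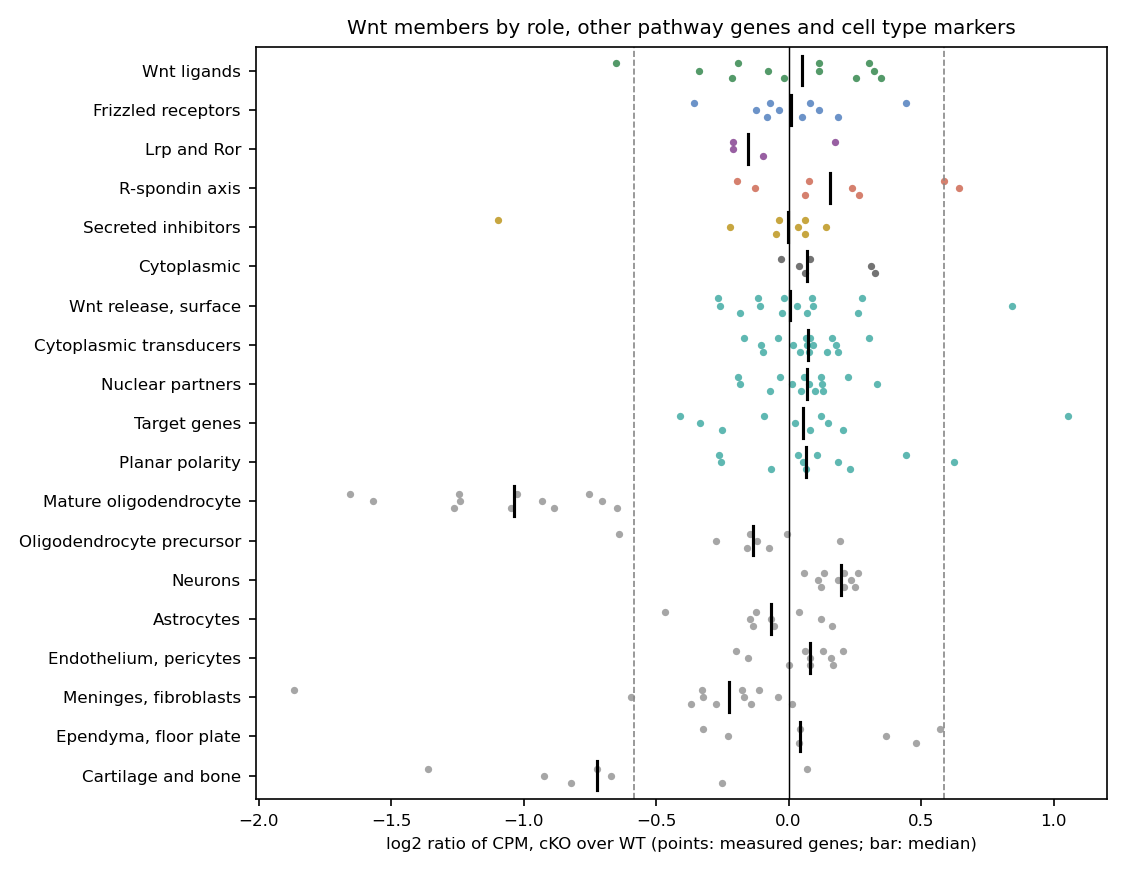
log2 ratio of CPM (cKO over WT) of each measured gene by list, with the median as a black bar and 1.5-fold as dashed lines; coloured points are Wnt members and pathway lists and grey points cell type markers. Wnt lists centre near 0, while the mature oligodendrocyte list lies wholly below the lower dashed line.

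All 12 mature oligodendrocyte and myelin markers were lower by the size rule, which 3.42% of all measured genes met in that direction. Their median log2 ratio was -1.04, and their summed level was 15775 TPM in WT and 8137 TPM in cKO. Of 8 precursor markers, Gpr17 was lower (-0.64), and their sums were 785 and 728 TPM. Neuron markers lay above 0 in 10 of 10, where 52.3% of all measured genes did, with a median of 0.20 and sums of 5596 and 6482 TPM. Meningeal and fibroblast markers lay below 0 in 11 of 12, where 7585 of all 15917 measured genes did. Their median was -0.23 and their sums 1906 and 1586 TPM, and Igf2 and Ogn were lower by the rule. Cartilage and bone markers, of which 5 of 7 measured were lower by the rule, summed to 24.5 and 15.1 TPM. None of the markers of these lists was at 0 in either library. The part of these differences in the values of Wnt3, Sfrp5, Rspo1, Znrf3 or any other member was not tested.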

How the data were processed

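The authors deposited estimated counts, TPM and FPKM per gene and per transcript, as named in the file headers; FPKM served only to check how counts were formed. CASAVA, Bowtie2 2.3.2 and GRCm38.p6 are listed, without roles, per the submitters' processing notes. Counting tool, annotation and use of strand: not given in the sources used here. All 168 member transcripts were found in GENCODE M21, 159 with the same ends. Library sizes were scaled with TMM factors (edgeR 4.0.16), 1.0006 for WT and 0.9994 for cKO, across all genes. Ratios carry no pseudocount. Exact (Clopper-Pearson) 95% intervals were computed in scipy 1.17.1 on fragments of 2 counts. For genes with 1 transcript and under 20 counts, the unrounded count lay within 0.2 of an even number in 34.7% (WT) and 33.0% (cKO) and of an odd number in 18.0% and 18.8%. PCR copies are not independent molecules, so intervals and floors cover counting error only. No statistical test was possible across conditions. The size rule was tested on simulated data with counting error only and set folds larger than those of the members past it. Variation between animals was not simulated. Members, lists and rules were chosen with earlier results of these data known. Named were all members, transcripts holding 10% or more of a member in the main cases, and of each pathway list the genes past the rule and the 2 of highest TPM; others are marked. Alternatives were DESeq2, upper quartile and no scaling, TPM, other filters and limits, and other ways to sum transcripts. Promoters of Wnt3, Sfrp5 and Rspo1 held no searched motif and are not printed. Znrf3, also past the size rule, had no listed promoter to search.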

Additional observations from a re-analysis of the deposited data

How the results depend on the processing

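The 4 members past the size rule were the same with TMM, DESeq2, upper quartile or no scaling factors, with intervals on counts as deposited, with counts summed over genes that share exons, and over protein-coding transcripts only. The number higher was 1 on the deposited TPM plus 0.1 (Wnt5a), 1 on TPM plus 1 (Wnt5a), 1 at a filter of 5 CPM (Znrf3) and 0 at a limit of 2-fold. The number lower was 1 on TPM plus 1, 1 at 5 CPM and 1 at 2-fold. Other pathway genes higher numbered 1 at 2-fold and 2 on TPM with either pseudocount (Celsr3 lost). Over protein-coding transcripts 4 were higher (Dvl2 added) and 1 was lower (Dvl1). With no filter but 6 counts, Dkk1 was higher as well. The members' median log2 ratio stayed between 0.05 and 0.09, and no called ratio changed sign. Of 336 ratios of single members under 7 settings, 11 left the interval first computed, all on TPM or protein-coding transcripts. No paired analysis was possible because each group has 1 library, and none could be left out. Depth limits members under about 100 counts most, such as Wnt16, Dkk1 and Wnt1. It also limits some above that. The intervals of Fzd5 (240 and 241 counts), Sfrp4 (135 and 149) and Rnf43 (143 and 217) reached past 1.5-fold.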
